A study of Mus musculus with 12 samples.

Results

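The synaptic vesicle and release machinery was followed here as a set of 39 genes, chosen by gene symbol from what their proteins are known to do at the nerve terminal. All probe sets whose platform annotation gave a member's symbol alone were taken, 99 in all, of 45101 on the array. Each gene was summarised by the probe set with the highest mean signal over all arrays, its brightest, and the 39 genes stand among 18193 genes summarised in the same way. A probe set annotated to Vamp1 together with a further symbol was not used.

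The arrays measured amplified RNA of material cut by laser capture, aimed at astrocytes, from frozen sections of the lumbar spinal cord. By the paper's account the captured material was a mix of cells with a large astrocyte part. It reports microglial and neuronal markers still present after the capture. There were 4 groups of 3 male mice, with 1 array a mouse: SOD1 G93A mice at 120 days (late-stage disease), their non-transgenic (NTg) littermates at 120 days, SOD1 G93A mice at 90 days (symptomatic disease) and NTg littermates at 90 days. The transgenic line, B6SJL-Tg(SOD1 G93A)1Gur/J, had been backcrossed to C57Bl/6J OlaHsd mice and carries a mutant human SOD1 gene that causes amyotrophic lateral sclerosis. Since that transgene is driven by the human gene's own promoter, neurons, astrocytes and other glia all express it. The labels describe the sections as stained with toluidine blue, whereas the methods describe staining for ALDH1L1, and a laser cut also takes in the processes and synapses that lie against an astrocyte. Signal is given throughout as log2 of the deposited signal plus 7, quantile normalised within each age, and a gene was called where limma gave an adjusted p under 0.05 over all tested probe sets.

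At a synapse, neurotransmitter is loaded into vesicles, the vesicles are docked and primed at the active zone, and calcium entering the terminal makes the vesicle and plasma membranes fuse through the SNARE proteins. The vesicle membrane is then taken back by clathrin-mediated endocytosis and refilled. Most of these genes are expressed by neurons, and loss of motor neurons and of their synapses is a defining feature of the disease that these mice model.

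The astrocyte label was set beside 16 astrocyte markers. Their signal summed to between 23147 and 37255 in the SOD1 G93A arrays at 120 days, against 22030 to 26462 in the NTg arrays. At 90 days the sums were 41602 to 47021 in SOD1 G93A and 37063 to 42409 in NTg arrays. At 120 days 3 of the 16 were called higher in SOD1 G93A mice and 0 lower, and 7 fold changes were below 0. Gfap, the intermediate filament of reactive astrocytes, was among those called higher, with a log2 fold change of 4.79 and an adjusted p of 0.000123. Neuronal RNA was present in every sample. Signal of 22 neuron markers summed to between 32373 and 45550 in the SOD1 G93A arrays at 120 days and between 49711 and 58212 in the NTg arrays. At 90 days the sums were 42708 to 59586 in SOD1 G93A and 50497 to 65170 in NTg arrays. Such sums depend on which markers are listed and do not give the share of each cell type. In bulk samples of this kind, fewer cells or terminals of a type cannot be told apart from less RNA in each. SOD1 G93A replicate 3 at 120 days had the lowest mean correlation with its own group (0.835) and the highest median signal (55.2) of the 12 arrays, so the results at 120 days are also given without it.

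Most of the vesicle and release genes had lower signal in late-stage SOD1 G93A mice than in their littermates, and in symptomatic mice the fold changes lay around 0. At 120 days, 11 of the 39 genes were called lower in SOD1 G93A than in NTg mice and 0 were called higher, where 4.47% of all 12429 tested genes were called lower and 4.14% higher. The 11 genes were Syt2, Syn3, Sv2b, Snap25, Vamp1, Nsf, Pclo, Snap91, Amph, Dnm1 and Vsnl1. Their signal in SOD1 G93A mice was between 33.1% and 49.2% of that in NTg mice. Of the 39 genes, 36 passed the filter on dim probe sets and were tested, and Syt5, Sv2c and Slc17a7 did not. The median log2 fold change of the 39 genes was −0.47 at 120 days, against −0.01 over all 18193 genes, and 31 of the 39 fold changes were below 0, against 9194 of the 18193. With median centring of each array in place of quantile normalisation, 17 members were called lower, where 1624 of all tested genes were called lower and 359 higher, against 555 and 514 here.

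At 90 days no member was called in either direction, where 0.0402% of all tested genes were called lower and 0.185% higher. By unadjusted p under 0.05, 2 members were lower and 0 were higher, where 338 of the 12429 tested genes were lower and 435 higher. The median log2 fold change of the members at that age was −0.04, against 0.02 over all genes. Non-overlap gave the same order of the ages: every SOD1 G93A array lay below every NTg array for 23 of the 39 genes at 120 days and for 1 at 90 days, with 15.4% and 5.14% of all genes as background at the 2 ages.

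**Figure D1:**
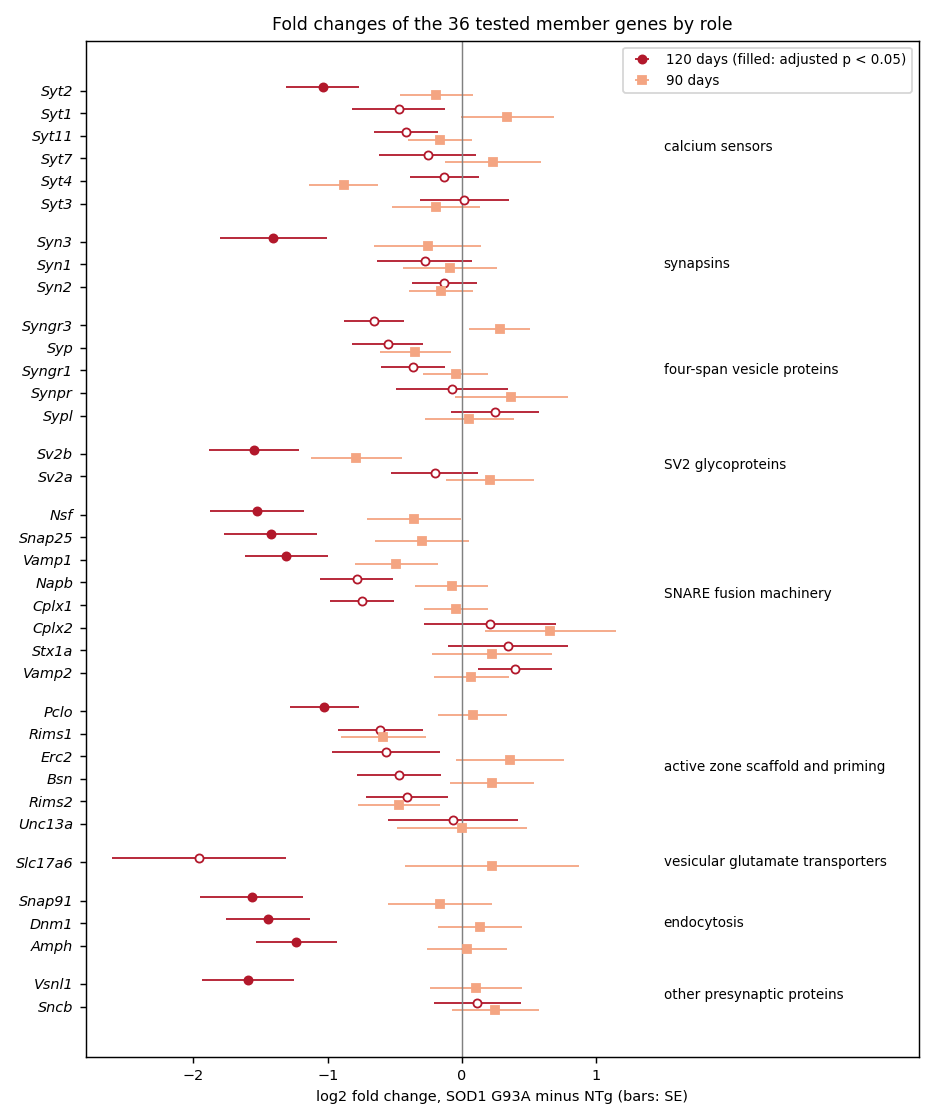
Log2 fold change (SOD1 G93A minus NTg) of the 36 tested members with its standard error, ordered by role and shown at 120 days (circles, filled where the adjusted p was under 0.05) and 90 days (squares). The 11 filled circles all lie between −1.59 and −1.02, and no fold change at 90 days was called.

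Before the values, the promoters of 4 members are shown from RefSeq (GRCm38.p6), as windows of 250 bases before to 50 bases after an annotated start. Windows were given for 31 of the 39 genes, 9 of the 11 called lower among them. Dnm1, Vsnl1 and Sv2b had the 3 smallest p-values at 120 days, and Syn1 is shown as a member that was not called and whose window alone among the members' holds a cyclic AMP response element. Capitals mark the GC box (GGGCGG), the cyclic AMP response element (TGACGTCA) and the TATA box (TATAAA), each searched on both strands, so that TTTATA is a TATA box on the other strand. The windows lie at chr2:32353280-32353579 (Dnm1), chr12:11436529-11436828 (Vsnl1), chr7:75309213-75309512 (Sv2b) and chrX:20920869-20921168 (Syn1), all on the minus strand, and are printed 5′ to 3′ along the gene.
Dnm1: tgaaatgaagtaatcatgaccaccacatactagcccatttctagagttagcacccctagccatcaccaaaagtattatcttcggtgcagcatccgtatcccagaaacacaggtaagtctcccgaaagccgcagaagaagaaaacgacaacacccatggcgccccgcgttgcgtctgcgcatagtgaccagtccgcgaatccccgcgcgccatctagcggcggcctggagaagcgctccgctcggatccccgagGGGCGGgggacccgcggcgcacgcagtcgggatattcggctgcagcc
Vsnl1: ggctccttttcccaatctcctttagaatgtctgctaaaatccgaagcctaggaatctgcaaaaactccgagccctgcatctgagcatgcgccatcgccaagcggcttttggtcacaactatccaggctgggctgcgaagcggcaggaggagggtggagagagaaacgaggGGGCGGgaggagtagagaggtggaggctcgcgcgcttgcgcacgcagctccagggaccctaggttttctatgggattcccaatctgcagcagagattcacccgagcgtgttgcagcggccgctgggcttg
Sv2b: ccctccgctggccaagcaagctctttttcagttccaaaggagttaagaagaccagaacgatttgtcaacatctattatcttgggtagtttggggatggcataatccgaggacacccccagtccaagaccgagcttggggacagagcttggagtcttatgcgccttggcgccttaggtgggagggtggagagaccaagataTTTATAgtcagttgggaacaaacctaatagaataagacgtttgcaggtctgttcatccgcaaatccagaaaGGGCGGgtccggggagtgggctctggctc
Syn1: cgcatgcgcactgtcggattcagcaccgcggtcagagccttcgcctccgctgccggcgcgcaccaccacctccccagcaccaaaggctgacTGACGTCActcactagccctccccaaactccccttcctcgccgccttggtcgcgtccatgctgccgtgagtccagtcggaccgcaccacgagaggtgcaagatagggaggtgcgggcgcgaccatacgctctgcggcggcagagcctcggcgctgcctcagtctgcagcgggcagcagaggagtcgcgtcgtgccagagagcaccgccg
A GC box was found in 26 of the 41 windows of members (63.4%), against 35.7% of all 32851 promoter windows. Among the genes called lower, 7 of 9 held one in at least 1 window, and among the other members 17 of 22 did. The TATA box was in 2 windows of members, both of Sv2b, and in 13.6% of all windows, and the cyclic AMP response element was in 1.79% of all windows. A match describes these letters only.

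Many synaptotagmins are vesicle proteins that sense calcium. Syt2, the fast calcium sensor of many spinal cord and hindbrain terminals, was the 1 member of 7 called. Its log2 signal at 120 days was 10.14, 10.13 and 9.99 in SOD1 G93A mice, against 10.91, 11.30 and 11.16 in NTg mice. All 3 SOD1 G93A arrays lay below the NTg arrays and close to each other. The log2 fold change was −1.04 ± 0.27 (SE, n = 3 each) with an adjusted p of 0.0359. At 90 days the groups overlapped, with 11.25, 10.78 and 10.37 in SOD1 G93A and 11.18, 10.65 and 11.15 in NTg mice. Syt1, the fast sensor of forebrain terminals, had a log2 fold change of −0.47 at 120 days (adjusted p = 0.414), and its groups did not overlap there. Syt11 (−0.42), Syt7 (−0.26), a slower sensor, Syt4 (−0.13) and Syt3 (0.02) did not pass either. Syt4, an isoform found also on dense-core vesicles, was the member whose SOD1 G93A arrays all lay below the NTg arrays at 90 days, at 7.69, 7.48 and 7.87 in SOD1 G93A mice against 8.27, 8.93 and 8.47 in NTg mice. That difference, −0.88 ± 0.26, did not pass over all probe sets (adjusted p = 0.441). The other tested probe set of Syt4, 1415845_at, was at −0.14 at 90 days, and its groups overlapped.

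Synapsins tether vesicles to the cytoskeleton and to each other in the reserve pool. Syn3 was called lower, with log2 signals at 120 days of 8.03, 7.80 and 6.41 in SOD1 G93A mice and 8.92, 8.94 and 8.59 in NTg mice. Replicate 3 of the SOD1 G93A group lay far below the other two. The log2 fold change was −1.41 ± 0.40 (adjusted p = 0.0483), which is the call nearest to the threshold. Syn1 (−0.28) and Syn2 (−0.13) were not called by their brightest probe sets. A dimmer probe set of Syn2, 1435511_at, was called lower at −1.20 (adjusted p = 0.0375).

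Among the 5 four-span vesicle proteins, which include synaptophysin, an abundant protein of the vesicle membrane, none was called by its brightest probe set. Syngr3, a synaptogyrin, had the smallest p of them. Its log2 signal at 120 days was 6.75, 6.52 and 6.28 in SOD1 G93A mice, against 6.93, 7.28 and 7.31 in NTg mice, and at 90 days it was 6.78, 6.72 and 6.85 in SOD1 G93A mice, against 6.51, 6.55 and 6.45 in NTg mice. The SOD1 G93A arrays thus lay all below the NTg arrays at 120 days and all above them at 90 days. Neither fold change passed (−0.66 with an adjusted p of 0.0883 at 120 days, and 0.28 with an adjusted p of 1.00 at 90 days), nor did the difference between them (adjusted p = 0.445). Syp, which encodes synaptophysin, had a fold change of −0.55 at 120 days (adjusted p = 0.207), Syngr1 of −0.37, Synpr of −0.08 and Sypl, a widely expressed relative outside neurons, of 0.24. A dimmer probe set of Syngr1, 1419289_a_at, went the other way and was the only one of 78 tested member probe sets called higher at 120 days, with a log2 fold change of 1.47 ± 0.28 and an adjusted p of 0.00952.

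The SV2 glycoproteins are vesicle membrane proteins related to sugar transporters. Sv2b was called lower at 120 days, with log2 signals of 7.41, 7.13 and 7.47 in SOD1 G93A mice against 8.43, 9.43 and 8.79 in NTg mice. The SOD1 G93A arrays were all nearly 1 log2 unit or more below the lowest NTg array. The log2 fold change was −1.55 ± 0.34 (adjusted p = 0.0172). At 90 days Sv2b had 8.81, 7.96 and 8.23 in SOD1 G93A mice and 8.54, 9.49 and 9.32 in NTg mice, a difference of −0.79 with overlapping groups and an adjusted p of 0.841. Sv2a was at −0.21 at 120 days (adjusted p = 0.726), and Sv2c was too dim to be tested, with log2 signals between 3.28 and 5.07 over all arrays.

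Of the 8 genes of the SNARE fusion machinery, 3 were called lower at 120 days. Snap25, a SNARE of the plasma membrane, had log2 signals of 10.74, 10.98 and 9.98 in SOD1 G93A mice and 11.92, 12.15 and 11.90 in NTg mice. In deposited units these were 1902.6, 1993 and 869.3 in SOD1 G93A mice against 3516.7, 4344.5 and 3531.1 in NTg mice. No SOD1 G93A array reached the lowest NTg array, and replicate 3 was the lowest. The log2 fold change was −1.43 ± 0.35 (adjusted p = 0.0277). Vamp1, the vesicle SNARE that prevails in the spinal cord, had 10.26, 10.53 and 9.80 in SOD1 G93A mice and 11.14, 11.94 and 11.44 in NTg mice, with a fold change of −1.31 ± 0.31 (adjusted p = 0.0243). Nsf, the ATPase that takes used SNARE complexes apart, had 10.29, 10.05 and 8.97 in SOD1 G93A mice and 11.00, 11.41 and 11.48 in NTg mice, with a fold change of −1.53 ± 0.35 (adjusted p = 0.0214). Neither gene's groups overlapped, and replicate 3 was again the lowest array of the SOD1 G93A group for both.

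The remaining SNARE genes were divided in direction. Napb, an adaptor that brings Nsf to the complex, was at −0.78 (adjusted p = 0.0919) and Cplx1, a complexin that clamps the assembled complex, at −0.75 (adjusted p = 0.0698). Each had a dimmer probe set that was called lower, 1423172_at of Napb at −1.14 (adjusted p = 0.0458) and 1417746_at of Cplx1 at −1.24 (adjusted p = 0.0102). Cplx2 (0.21), Stx1a (0.34) and Vamp2 (0.39) had positive fold changes that did not pass. Vamp2 is the vesicle SNARE of most forebrain terminals, and its log2 signals were 9.19, 9.11 and 8.81 in SOD1 G93A mice and 9.13, 8.27 and 8.54 in NTg mice at 120 days. Those groups overlapped, unlike those of Vamp1. Within each array, the log2 signal of the Vamp1 probe set minus that of the Vamp2 probe set was 0.98 to 1.42 in SOD1 G93A mice and 2.01 to 3.67 in NTg mice at 120 days, a change of −1.70, against −0.56 at 90 days. The dimmer tested probe set of Vamp2 went the other way from the brightest, at −0.64 with an adjusted p of 0.398. This pair had the largest change of 6 pairs of related members set side by side after their values were known, the other 5 lying between −1.34 and −0.56 at 120 days, and since the 2 probe sets differ in brightness for reasons of their own, only the change between the groups can be read.

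Scaffolds of the active zone hold vesicles and calcium channels together. Pclo, which encodes the large scaffold piccolo, was called lower at 120 days, with log2 signals of 7.66, 7.48 and 7.15 in SOD1 G93A mice and 8.42, 8.62 and 8.32 in NTg mice. Both groups were tight and did not overlap, and the fold change was −1.02 ± 0.26 (adjusted p = 0.0308). At 90 days Pclo had 7.29, 7.04 and 7.43 in SOD1 G93A mice and 7.43, 7.33 and 6.77 in NTg mice, which overlapped. The fold changes at 120 days of Rims1 (−0.61), Erc2 (−0.57), Bsn (−0.47), Rims2 (−0.41) and Unc13a (−0.07), whose product primes vesicles, were all below 0 and did not pass. Probe sets other than the brightest were called lower for Rims1, 1435667_at at −1.40 (adjusted p = 0.00743), and for Rims2, 1450761_s_at at −1.31 (adjusted p = 0.0138) and 1436470_at at −1.17 (adjusted p = 0.0211). A further probe set of Pclo, 1455373_at, was at −1.42 (adjusted p = 0.00674).

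Vesicular glutamate transporters load glutamate into vesicles. Slc17a6 encodes the transporter of spinal excitatory interneurons, and it had the largest fold change of the members and the largest spread. At 120 days its log2 signal was 7.75, 7.92 and 6.84 in SOD1 G93A mice and 9.42, 10.29 and 8.67 in NTg mice, and at 90 days it was 8.43, 8.19 and 6.52 in SOD1 G93A mice and 8.90, 6.28 and 7.29 in NTg mice. The groups were apart at 120 days and overlapped over their whole width at 90 days. The fold change at 120 days, −1.96 ± 0.65, did not pass (adjusted p = 0.0805). Slc17a7, whose product loads vesicles of cortical and sensory afferent terminals, was too dim to be tested, with log2 signals between 3.15 and 4.84 over all arrays.

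All 3 endocytosis genes were called lower at 120 days. Snap91 encodes a clathrin assembly protein of nerve terminals, and its log2 signal was 9.21, 9.33 and 8.58 in SOD1 G93A mice and 10.27, 11.22 and 10.33 in NTg mice. Amph encodes amphiphysin, which brings dynamin to the vesicle neck, and had 8.43, 8.07 and 7.49 in SOD1 G93A mice and 9.18, 9.26 and 9.25 in NTg mice. Dnm1 encodes the neuronal dynamin that cuts the vesicle free, and had 10.65, 10.51 and 9.75 in SOD1 G93A mice and 11.48, 11.94 and 11.82 in NTg mice. For each gene every SOD1 G93A array lay below every NTg array, and replicate 3 was the lowest. The log2 fold changes were −1.57 ± 0.39 for Snap91 (adjusted p = 0.0289), −1.23 ± 0.30 for Amph (adjusted p = 0.0272) and −1.44 ± 0.31 for Dnm1 (adjusted p = 0.0166). At 90 days they were −0.16, 0.04 and 0.13 in the same order, with overlapping groups. Of the other presynaptic proteins, Vsnl1, a neuronal calcium sensor, had 10.41, 10.36 and 9.45 in SOD1 G93A mice and 11.59, 12.03 and 11.39 in NTg mice at 120 days. These groups did not overlap, and the fold change was −1.59 ± 0.34 (adjusted p = 0.0166). Sncb, which encodes beta-synuclein, was at 0.11 (adjusted p = 0.855).

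**Figure D2:**
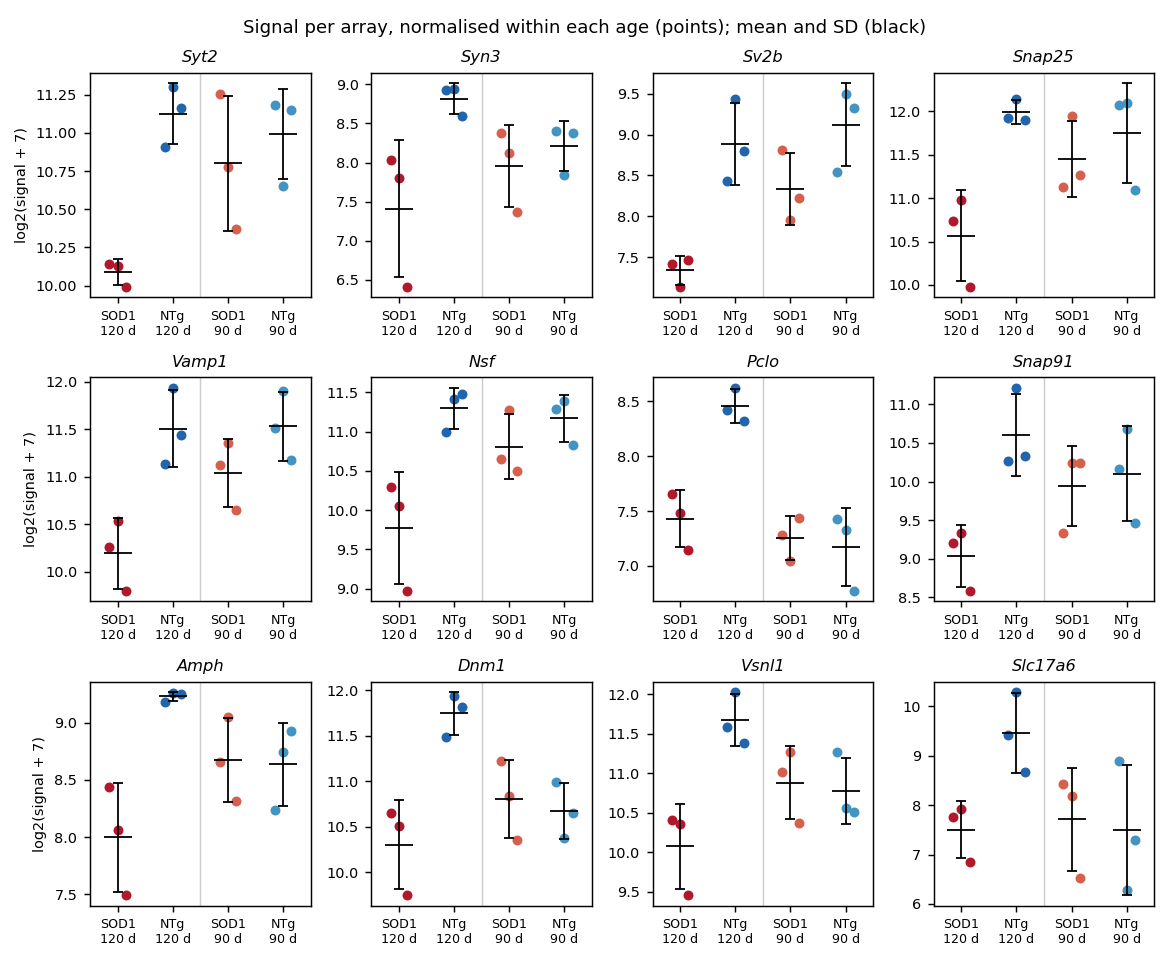
Log2 signal on each array (points, replicates 1 to 3 from left to right) with the group mean and SD for the 11 members called lower at 120 days and for Slc17a6, which was not called. In every panel the 3 SOD1 G93A points at 120 days lie below the 3 NTg points, and the 90-day groups overlap.

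Agreement between probe sets could be examined for 24 members with over 1 tested probe set, of which 19 had the same sign at 120 days in all of them. The exceptions were Syt7, Sypl, Syngr1, Vamp2 and Cplx2. Over all member probe sets, 18 of the 78 tested were called lower and 1 higher, where 3.86% of all tested probe sets were called lower and 3.6% higher. With any probe set counted, 16 members had a call lower, the 5 genes beyond the 11 being Syn2, Cplx1, Napb, Rims1 and Rims2. Genes with more probe sets have more occasions for a call, and the share of all genes counted this way was not computed. Among the 11 genes, dimmer tested probe sets of Syt2, Syn3, Sv2b, Snap25, Nsf, Snap91, Dnm1 and Vsnl1 and 1 of Pclo did not pass, all with fold changes below 0.

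The calls at 120 days depended on single arrays of that age. Replicate 3 of the SOD1 G93A group was the lowest of its group for 10 of the 11 genes, and without it only Sv2b was called lower, where the share of all tested genes called lower was then 1.87%. Without NTg replicate 1 at 120 days 6 members were called, and 2.13% of all tested genes. Without NTg replicate 3 only Vsnl1 was called (0.853% of all tested genes), and without NTg replicate 2 none was (0.491%). Leaving out any other array left 9 to 11 calls. The median fold change of the members at 120 days stayed between −0.56 and −0.41 in all of these fits, and each of the 11 fold changes stayed below 0. With 3 mice a group, an exact permutation test of 1 gene cannot give a two-sided p below 0.1.

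**Figure D3:**
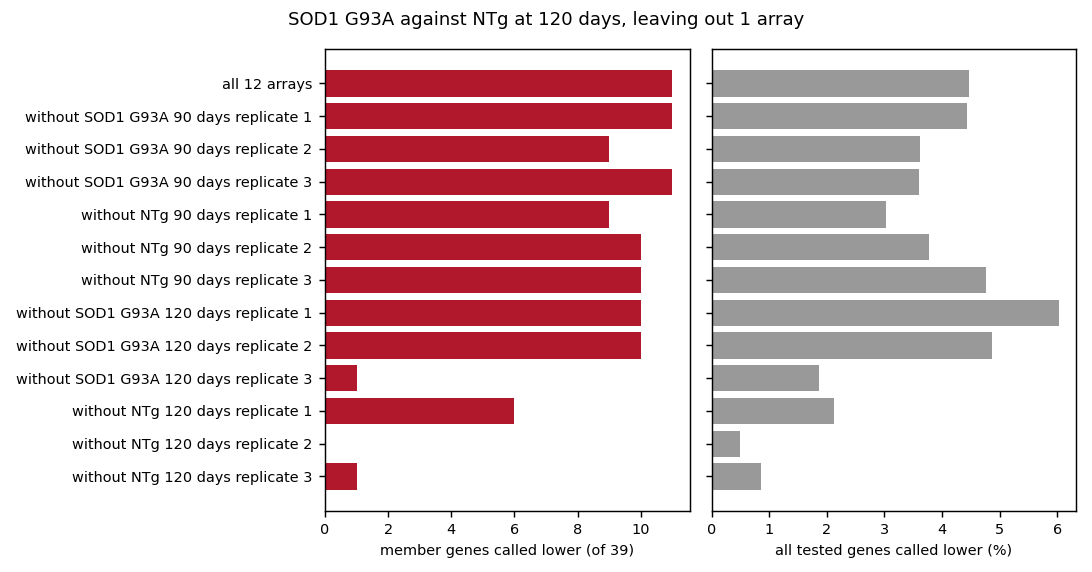
Number of the 39 members called lower in SOD1 G93A than in NTg mice at 120 days (left) and percentage of all tested genes called lower (right), with all 12 arrays and with 1 array left out. The bars fall to 1, 6, 0 and 1 members without SOD1 G93A replicate 3 and NTg replicates 1, 2 and 3 of 120 days.

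Whether the fold changes differed between the ages was tested directly. No member passed, and neither did any of the 12429 tested genes (0% in both directions). At an unadjusted p under 0.05, 10 members had a more negative fold change at 120 days than at 90 days and 0 a less negative one, where 640 and 488 of all tested genes did. The smallest adjusted p among the members was 0.386, for Dnm1, whose fold changes differed by −1.58 ± 0.44. A gene called at 120 days and not at 90 days is therefore not shown to have changed its response between the ages.

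The ages were also compared within each genotype, on values normalised over all 12 arrays together. By brightest probe sets, Pclo and Dnm1 were called higher in NTg mice at 120 than at 90 days and no member was called lower. Of all tested genes 1.21% were called higher and 2.27% lower. Pclo had log2 signals of 8.47, 8.68 and 8.37 at 120 days against 7.43, 7.34 and 6.81 at 90 days, a difference of 1.32 ± 0.26 (adjusted p = 0.0171). Dnm1 had 11.58, 12.002 and 11.88 at 120 days against 10.90, 10.28 and 10.56 at 90 days, a difference of 1.24 ± 0.31 (adjusted p = 0.0461). For both genes the ages did not overlap. The median difference of the 39 genes in NTg mice was 0.48, against 0.03 over all genes, and 28 of the 39 were above 0.

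In SOD1 G93A mice the median difference between 120 and 90 days was −0.04, against −0.03 over all genes. By brightest probe sets Syt4 was the 1 member called, higher at 120 days, where 2.5% of all tested genes were called higher and 3.55% lower. Its log2 signal was 8.97, 9.08 and 8.69 at 120 days against 7.67, 7.47 and 7.84 at 90 days, a difference of 1.25 ± 0.26 (adjusted p = 0.0152). The ages did not overlap, and in NTg mice Syt4 differed by 0.54 (adjusted p = 0.261). The other tested probe set of Syt4, 1415845_at, differed by 0.16 in SOD1 G93A mice and was not called (adjusted p = 0.749). Pclo differed by 0.16 and Dnm1 by −0.31 in SOD1 G93A mice, neither of which passed. Dimmer probe sets of Vamp2 (1420833_at, −1.61), Rims2 (1450761_s_at, −1.36) and Syt11 (1429315_at, −1.04) were called lower at 120 days. That of Snap25, 1447763_at, was called higher at 2.68. The mean log2 signal of the 39 genes was 8.18 to 8.39 in SOD1 G93A arrays at 120 days, 8.78 to 9.05 in NTg arrays at 120 days, 8.17 to 8.53 in SOD1 G93A arrays at 90 days and 8.38 to 8.53 in NTg arrays at 90 days, so the NTg arrays at 120 days stood above the other 9. The comparison of genotypes at 120 days and the comparison of ages in NTg mice share those 3 arrays and are not independent. Age and any difference in the preparation of the 2 sets of arrays cannot be told apart. Between 120 and 90 days the median difference in NTg mice was −0.71 for astrocyte, −0.76 for microglial and 0.16 for neuron markers. In SOD1 G93A mice it was −0.46, −0.20 and −0.40 in the same order. The part of these differences in the members' levels was not tested.

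Most neuron markers also had fold changes below 0 at 120 days, 18 of 22. Of the 22, 8 were called lower (Rbfox3, Nefl, Nefm, Nefh, Elavl4, Stmn3, Ndrg4 and Dync1i1) and 13 were not called. Over all tested genes 4.47% were called lower and 4.14% higher. Gap43, a growth-associated protein of axons, was called higher with a fold change of 1.43 (adjusted p = 0.0178). Elavl3 (0.38) and Mapt (0.48) did not pass, but as for Gap43 every SOD1 G93A array lay above every NTg array. The median log2 fold change was −0.47 for the members and −0.81 for the markers. Within each array, the mean log2 signal of the members minus that of the neuron markers was −1.65, −1.54 and −1.49 in SOD1 G93A mice and −1.40, −1.56 and −1.76 in NTg mice at 120 days. Those groups overlapped, with means of −1.56 in SOD1 G93A and −1.57 in NTg mice. At 90 days the differences were −1.86, −1.90 and −2.08 in SOD1 G93A mice and −2.003, −2.17 and −2.09 in NTg mice. Signal of 11 motor neuron markers summed to between 760.1 and 1439 in SOD1 G93A arrays and between 1416 and 3194 in NTg arrays at 120 days, and 2 of them were called lower. The part of a change in neuronal material in the members' fold changes was not tested. Microglial markers also differed, with sums of 9871 to 11572 in SOD1 G93A and 1628 to 1829 in NTg arrays at 120 days, and 10 of 13 called higher. Oligodendrocyte marker sums were 39223 to 50384 in SOD1 G93A and 25103 to 32202 in NTg arrays at 120 days, and 1 of 11 was called higher. The mean log2 signal of those 11 markers overlapped, at 9.75 to 10.59 in SOD1 G93A and 9.68 to 10.31 in NTg arrays. The part of these microglial and oligodendrocyte differences in the members' fold changes was not tested either.

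**Figure D4:**
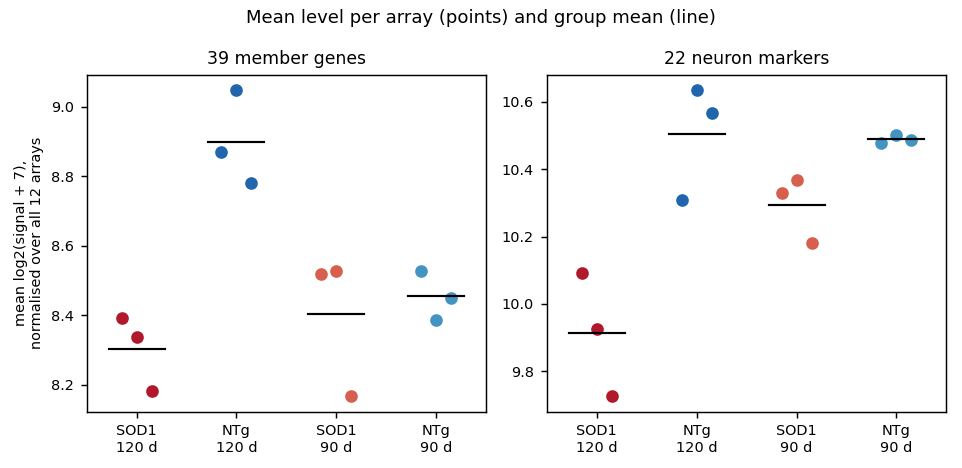
Mean log2 signal, normalised over all 12 arrays, of the 39 members (left) and of 22 neuron markers (right) on each array (points), with the group mean (line). Members lie at 8.18 to 8.39 in SOD1 G93A and 8.78 to 9.05 in NTg arrays at 120 days, and neuron markers lie at 9.73 to 10.09 in SOD1 G93A and 10.31 to 10.64 in NTg arrays.

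The wider presynaptic apparatus was described with 98 further genes, of which 88 were tested. At 120 days 7 were called lower and 2 higher, where 4.47% and 4.14% of all tested genes were, and at 90 days none was called. Their median log2 fold change at 120 days was −0.31, against −0.01 over all genes, with 65 of 98 below 0, against 9194 of 18193. Of the active zone and priming genes, Cadps, which primes dense-core vesicles, was at −1.70 (adjusted p = 0.00717) and Unc13c, a relative of the priming gene Unc13a, at −1.47 (adjusted p = 0.0142), while Rab27b (−1.26) and Cask (1.02) did not pass. The endocytosis genes Dnm3, a further dynamin (−1.71, adjusted p = 0.0109), Synj1, a lipid phosphatase that helps uncoat vesicles (−1.08, adjusted p = 0.0199), and Sh3gl2, an endophilin (−1.17, adjusted p = 0.0359), were called lower, and Itsn2 (−1.09) did not pass. Of the 22 further endocytosis genes, 19 were not called, and 13 of the 22 fold changes were below 0. Napg, a widely expressed relative of Napb, was called lower at −1.21 (adjusted p = 0.0235), and Scamp1, a secretory carrier membrane protein, at −1.41 (adjusted p = 0.0207). The 2 genes called higher were Vamp8, an endosomal SNARE of many non-neuronal cells, at 1.34 (adjusted p = 0.0144) and Syngr2, a synaptogyrin of non-neuronal cells, at 1.71 (adjusted p = 0.00162). Snap47 (−0.86), Stxbp5 (−0.86), Svop (−1.26) and Slc32a1 (−1.04), which loads GABA and glycine, did not pass. Of the further genes listed as calcium sensors, Syt14 (−0.85), Rph3a (−0.72), Syt9 (−0.68) and Syt6 (−0.70) did not pass either.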

How the data were processed

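Signals of 12 Affymetrix mouse expression arrays were analysed. Per the labels, the authors summarised probe intensity with MAS5 (no version given) and deposited linear intensity with 1 decimal, scaled to a trimmed mean of 100 on each array, after 2 rounds of RNA amplification. Such amplification favours 3′ ends, so probe sets of a gene can differ. The methods name another summary, PLIER, for the differential expression, which these values are not. The offset of 7 was the 20th percentile of all values.

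Control probe sets (64) were dropped. Probe sets had to exceed their array's median on 3 or more arrays, and the 26132 that did so entered limma 3.58.1 in R 4.3.3 (lmFit and eBayes over the 4 groups, 8 residual degrees of freedom, Benjamini-Hochberg adjustment over all tested probe sets). Ages were compared after quantile normalisation over all arrays. No present calls or background values were used, so the number of arrays limits the precision. Of the probe sets, 34958 had 1 symbol, 932 several and 9211 none, and only those with 1 were named. The scripts were tested on simulated data.

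The members, the marker lists and the tests were chosen with earlier results of these data known. Values per array are given for members called at either age or in the difference between ages, for the member with the smallest p of a role group without a call, and for Syt4 and Vamp2, chosen after their values were seen. Of other presynaptic genes, the 4 with the smallest p at 120 days in each group are named. Some genes of the lists are not analysed here. Alternatives covered normalisation, offset, filter, fit, threshold, the choice of probe set and each array.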

Additional observations from a re-analysis of the deposited data

Results flagged for a closer look

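Syngr3, a synaptogyrin of the vesicle membrane, was the 1 member whose SOD1 G93A arrays changed sides between the ages. They all lay below the NTg arrays at 120 days and all above them at 90 days. Of all 18193 genes, 2800 had every SOD1 G93A array below every NTg array at 120 days and 2398 had every one above. At 90 days these counts were 936 and 1214. The share of genes that changed sides was not computed, so 1 such member is not shown to be unusual. Another probe set of Syngr3, 1448216_at, was too dim to be tested. Its SOD1 G93A arrays all lay above the NTg arrays at 120 days (0.32). By the brightest probe set of Syngr3, the log2 fold change was 0.94 lower at 120 than at 90 days. The difference was −0.94 ± 0.32 (SE, n = 3 arrays a group). By limma's test of the difference the unadjusted p was 0.0112 and the adjusted p over all tested probe sets was 0.445, so it did not pass. Over the alternatives the fold change at 120 days lay between −0.95 and −0.17, and it was called lower under 2 of them, median centring (−0.95, adjusted p = 0.0371) and a filter at the 75th percentile (−0.66, adjusted p = 0.0435).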

How the results depend on the processing

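For the 11 members called lower at 120 days, Slc17a6 and Syngr3, no alternative run turned the direction of the fold change at that age. The count of members called lower at 120 days was 11, and it was 17 with median centring of each array, 5 with no filter, 2 with each age fitted alone, 7 with the mean of all probe sets of a gene and 0 to 11 with 1 array left out. It was 7 with the replicate block, and the other alternatives gave 10 to 14. No member was called higher under any alternative. The share of all tested genes called lower moved too, from 4.47%. It was 1.52% with no filter, 1.23% with each age fitted alone and 4.66% with the mean of all probe sets. With the replicate block it was 2.12%, with median centring 13.1%, with 1 array left out 0.491% to 6.03%, and under the other alternatives 3.36% to 10.1%. Slc17a6 was called lower under 5 alternatives. With median centring 1624 of all tested genes were called lower and 359 higher, against 555 and 514, and the members' median at 120 days was −0.93 in place of −0.47. Median centring subtracts each array's own median. At 120 days the deposited medians were 38.8, 43.1 and 55.2 in SOD1 G93A and 37.1, 27.9 and 34.1 in NTg arrays. Why the medians differed was not tested. Quantile normalisation moved the median of all tested probe sets at 120 days to −0.07, against 0.07 as deposited. At 90 days the count was 0 throughout, and the median lay between −0.13 and 0.04 with 1 array left out. By the methods' threshold of a 2-fold change and an unadjusted p under 0.05, 12 members were lower at 120 days, where 954 of all 12429 tested genes were lower and 691 higher, and 8 had a lower fold change at 120 than at 90 days, where 476 of all tested genes had a lower and 349 a higher one.

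Whether the replicate numbers of the titles pair the mice is not stated. Deviations of same-numbered arrays from their group means correlated at −0.27, 0.28 and −0.28 at 90 days and at −0.07, 0.04 and −0.01 at 120 days. Arrays of different numbers correlated at −0.36 to 0.46 at 90 days. With 3 arrays a group such deviations are tied to each other, so these values cannot decide whether mice were paired. With the replicate block, 7 members were called lower at 120 days, 6 of them among the 11, and the comparisons of ages gave 0 in NTg and 0 in SOD1 G93A mice.

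In NTg mice the 2 calls became 1 as deposited, 0 with median centring, 1 with an offset of 1, 6 with an offset at the median, 1 with no filter, 4 with a filter at the 75th percentile, 14 with array weights, 7 with a trended and robust prior, 6 by the methods' threshold and 0 to 4 with 1 array left out. In SOD1 G93A mice the 1 call became 2 as deposited, 10 with median centring, 3 with an offset at the median, 2 with a filter at the 75th percentile, 3 with a trended and robust prior, 2 by the methods' threshold, 0 with the mean of all probe sets and 0 to 2 with 1 array left out. For these comparisons of ages the share of all tested genes called under each alternative was not computed. The counts are therefore not shown to be particular to the members. Signals near the offset carry little precision.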
